A study of Mus musculus with 6 samples.

Results

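The DEAD box and DEAH box RNA helicases of mouse hepatocytes were described by how their transcripts were spliced on a high-fat diet (HFD) and on a low-fat diet (LFD). Members were taken by name: every gene whose symbol begins with Ddx or Dhx followed by a digit in the splicing table of either diet. This gave 36 genes of 7182 in the tables. Of these, 35 were helicase genes, and Dhx58os, an RNA transcribed antisense to Dhx58, came in through its name only. HFD mice received a diet with 60% fat and LFD mice a diet with 10% of energy from fat, each for 12 weeks. All were male C57BL/6J mice, fed chow with 13.5% fat until they were 8 weeks old. Hepatocytes were isolated from dissected livers, and 3 libraries of stranded mRNA were sequenced per diet. The authors pooled the 3 libraries of a diet into a single value per junction, so no spread between animals could be computed and the errors below come from the reads alone.

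DEAD and DEAH box proteins use ATP to unwind or clamp RNA and to remove proteins from it. They act at nearly every step of an RNA's life, from transcription and splicing through ribosome assembly and export to translation, decay and the sensing of viral RNA. Several of them are subunits or remodelling factors of the spliceosome, the machine whose output is measured here. Genes of RNA-processing proteins often also make transcripts with an early stop codon, the kind that nonsense-mediated decay removes.

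The splice choices that carry the results are shown first as sequence, because their letters show what each choice does to the reading frame. Sequences are from the GENCODE vM21 transcripts on GRCm38 (mm10), 5′ to 3′ along the transcript. The first set holds alternative exons or exon extensions that bring a stop codon into the frame of the main coding transcript. Each begins with the last 15 bases of the exon before and runs to the stop codon, which is in capitals.
Ddx39 exon: tgctggaacagctgggctccctttccTGA
Ddx50 exon: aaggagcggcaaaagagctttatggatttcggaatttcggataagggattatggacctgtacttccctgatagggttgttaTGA
Dhx9 exon: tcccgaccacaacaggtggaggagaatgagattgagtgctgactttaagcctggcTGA
Ddx17 exon: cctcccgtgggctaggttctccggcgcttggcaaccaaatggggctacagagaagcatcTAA
Ddx5 segment: cctccagagggctaggtTAG
The Ddx39 exon is 59 bp long (chr8:83721466-83721524, plus strand) and its stop ends at base 14. The Ddx50 exon is 110 bp long (chr10:62647534-62647643, minus strand) and its stop ends at base 69. The Dhx9 exon is 139 bp long (chr1:153476424-153476562, minus strand) and its stop ends at base 43. In the Ddx17 exon (chr15:79532975-79533210, minus strand) the stop ends at base 47, and in the Ddx5 segment (chr11:106783652-106783958, minus strand) at base 5. The Ddx39, Dhx9 and Ddx5 forms are annotated as nonsense-mediated decay transcripts. The Ddx50 form is annotated as non-coding, and the Ddx17 form as a coding transcript with its own end.

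The second set holds pairs of splice sites 3 or 6 nucleotides apart, where the choice adds or removes whole codons. Each line gives 15 bases before and 15 after the splice in the longer form, with the optional bases in capitals.
Ddx46 site: atcgagtctcagGTAgatgtgatgcagcag
Ddx17 site: gaggaggggGTAAGGgaggccgctcacgat
Dhx9 site: ctctcaaagcagaagCAGaaaataattctg
Ddx3y site: tggacgttctaaaagCAGattcagtggagg
Ddx3x site 1: gaagtacagcaagcaAAGggcgttatatcc
Ddx3x site 2: tggacgttctaagagCAGtcgatttagtgg
The Ddx46 and Ddx17 pairs are 5′ splice sites, so the optional bases end the exon, and the others are 3′ splice sites, where they begin it. The Ddx3y site and Ddx3x site 2 belong to paralogous genes on the Y and X chromosomes. Compared position by position with no gap allowed, they share 17 of the 18 bases up to the end of the capitals, and 21 of all 30. The letters after the capitals match better when shifted, so the count over all 30 does not measure how alike the exons are.

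Splicing was read as local splicing variations (LSVs). An LSV is a reference exon with every junction, and any retained intron, that leaves it (the view from the exon before) or enters it (the view from the exon after). PSI, the fraction of an LSV's reads that use a given junction or intron, is a posterior mean between 0 and 1, and its posterior SD follows each value below. Reported PSI ran from 0.0125 to 0.9875, so either limit stands for a choice that was nearly absent or nearly complete. The HFD table held 140 helicase LSVs in 31 genes, and 149 in 34 genes were in the LFD table. Matching by LSV left 136 LSVs in 28 genes with 301 entries, 251 of them junctions and 50 retained introns. The whole series had 26910 matched LSVs in 5978 genes.

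No helicase LSV changed by the rule used across the table, a PSI difference of at least 0.2 whose 95% posterior interval excludes 0. The interval is a normal one, from the combined posterior SD of both diets, and a difference is called beyond the reading error where it excludes 0. This rule called 0 of 136 helicase LSVs, against 168 of all 26910 (0.624%), a share at which 0.849 helicase LSVs would be called. No helicase was listed among the 124 LSVs of the authors' deposited table of differential PSI, where 1.72% of genes with matched LSVs appear. The authors' deposited JUM table, from a second splicing program, held no helicase among its 470 events either, and 1.05% of the same genes pass its adjusted p-value of 0.05. A count of 0 is close to each of these background shares for so few genes and says nothing particular about helicases. The largest PSI difference per gene had a median of 0.0324 over the 28 helicases, beside 0.0310 over all genes. It ran from 0.000749 in Ddx51 to 0.138 in Ddx39, was under 0.05 in 17 genes, and reached 0.1 in 2 genes (7.14%, beside 14.3% of all genes).

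Smaller differences beyond the reading error were found in 14 helicase LSVs of 9 genes (10.3% of LSVs), where 13.9% of all LSVs had one. With the size set at 0.1 or more, 2 LSVs remained, in Ddx39 and Ddx46 (1.47%, beside 4.17% of all LSVs). Both shares lie under those of the whole table. The 95% interval stayed under 0.1 in 116 of the 136 LSVs and reached 0.2 only in 2 LSVs, in Ddx39 and Ddx46. It bounds the difference between the pooled reads and leaves out the spread between animals. Near the limits of reported PSI the posterior SD becomes very small, and a normal interval is only approximate. Several of the LSVs beyond the error have a diet at or near a limit. An example is the Ddx49 intron described below, at 0.0126 ± 0.00185 on LFD. At the 16 helicase entries of intermediate PSI (0.1 to 0.9 on both diets) the median posterior SD was 0.0361 on HFD and 0.0312 on LFD. That precision is worth a median of 157 effective reads on HFD and 214 on LFD.

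**Figure D1:**
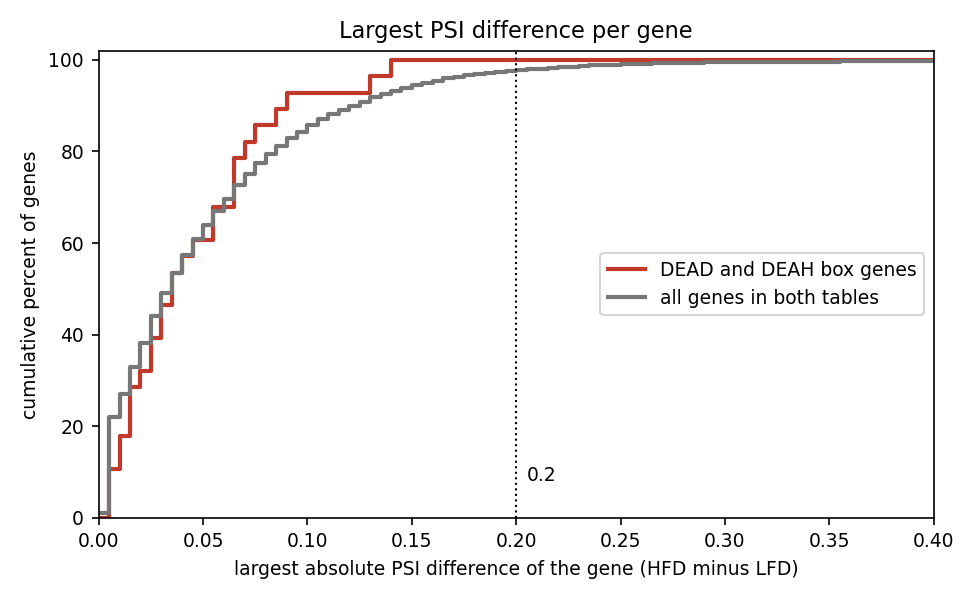
Cumulative percent of genes (vertical axis) against the largest absolute PSI difference of the gene between HFD and LFD (horizontal axis), for the 28 DEAD and DEAH box genes (red) and all 5978 genes in both tables (grey). The dotted line marks 0.2. The curves lie close together around their medians, and the helicase curve ends at 0.138.

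Helicases of RNA export, decay and translation held 9 of the 14 LSVs beyond the reading error, in 5 of 6 genes with matched LSVs. They make up 25% of this group's 36 LSVs, beside 13.9% of all LSVs in the series. LSVs of a gene share reads and 6 of the 9 are in Ddx3x and Ddx3y, so the group's share is given as a description only. Ddx39, a paralog of Ddx39b, which acts in both splicing and export and is counted below with the spliceosomal helicases, had the largest difference of any helicase. Its 59-bp exon with the stop codon was used at PSI 0.190 ± 0.0496 on HFD, against 0.0514 ± 0.0233 on LFD, viewed from the exon before. The difference was 0.138, with an interval of 0.0309 to 0.246. In the pooled reads the exon was thus used more on HFD, and the size of the difference is known only loosely. The reads behind it amounted to 61.4 effective reads on HFD and 88.6 on LFD. From the exon after, inclusion was 0.103 ± 0.0403 on HFD and 0.0282 ± 0.0179 on LFD, a difference of 0.0747 in the same direction that did not exceed its error. Both views share reads of the skipping junction, so they are not separate measurements.

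Ddx3x, an X-linked helicase that helps start translation on structured mRNAs, retained an 85-bp intron (chrX:13290361-13290445) more on HFD. Its PSI was 0.145 ± 0.0186 on HFD and 0.0745 ± 0.0138 on LFD from the exon after. From the exon before it was 0.0952 ± 0.0157 on HFD and 0.0532 ± 0.0129 on LFD. Both views exceeded their error, and the view from the exon after rested on 358 effective reads on HFD and 362 on LFD. The other 4 introns of Ddx3x followed here did not move beyond it. The 110-bp intron, for example, had 0.0899 ± 0.0161 on HFD and 0.0871 ± 0.0141 on LFD from the exon after.

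Of the tandem 3′ splice sites of Ddx3x, site 1 differed beyond the error, with less of the shorter form on HFD. There the form without AAG had PSI 0.0139 ± 0.00577 on HFD and 0.0465 ± 0.0126 on LFD. At site 2 the form without CAG had PSI 0.0165 ± 0.00916 on HFD and 0.0375 ± 0.00787 on LFD, within the error. The Y-linked paralog Ddx3y used its CAG-less form far more: 0.415 ± 0.0345 on HFD and 0.439 ± 0.0311 on LFD. The short form was thus rare in the X-linked gene and common in the Y-linked gene, on both diets. The first 15 of the letters printed for these sites belong to the exon before. The intron sequence at the splice sites was not compared.

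Ddx3y had 3 LSVs beyond the error, all of them minor forms. Its 69-bp intron (chrY:1264959-1265027) was retained at PSI 0.0959 ± 0.0262 on HFD and 0.0345 ± 0.0149 on LFD from the exon after. From the exon before, the same intron had 0.0233 ± 0.0146 on HFD and 0.0343 ± 0.0148 on LFD, so the views did not agree in direction. A 173-bp segment inside another intron of Ddx3y, in no vM21 transcript, gave views that differed likewise. The junction into it had PSI 0.0127 ± 0.00238 on HFD and 0.0746 ± 0.0195 on LFD, and the junction out of it 0.0576 ± 0.0210 on HFD and 0.0125 ± 0.000734 on LFD. With entry lower and exit higher on HFD, its inclusion as a whole has no direction in these tables. Reads that fit Ddx3x and Ddx3y alike may have been assigned to either gene, which was not tested.

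Ddx19a, an export helicase of the nuclear pore, joined a pair of coding exons by its 5800-bp junction at PSI 0.987 ± 0.00360 on HFD and 0.932 ± 0.0218 on LFD. In this LSV only the 5800-bp junction differed beyond the error. The rest on LFD went mostly to a junction in no vM21 transcript that skips a 93-bp exon. This skipping had 0.0127 ± 0.00203 on HFD and 0.0480 ± 0.0188 on LFD, within the error, as it also was from the exon after. The exon's length is a multiple of 3, and whether reads were shared with its paralog Ddx19b was not tested. Dhx36, which unwinds G-quadruplexes, used a 5′ splice site in no vM21 transcript, 155 nt downstream of the annotated site, at 0.0133 ± 0.00471 on HFD and 0.0537 ± 0.0179 on LFD. A second Dhx36 junction outside vM21, of 2615 bp, had 0.0675 ± 0.0295 on HFD and 0.0143 ± 0.00665 on LFD, within the error. The largest difference of Dhx33 was 0.0370, also within the error, at a junction annotated in a nonsense-mediated decay transcript (0.0498 ± 0.0246 on HFD, 0.0128 ± 0.00295 on LFD).

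**Figure D2:**
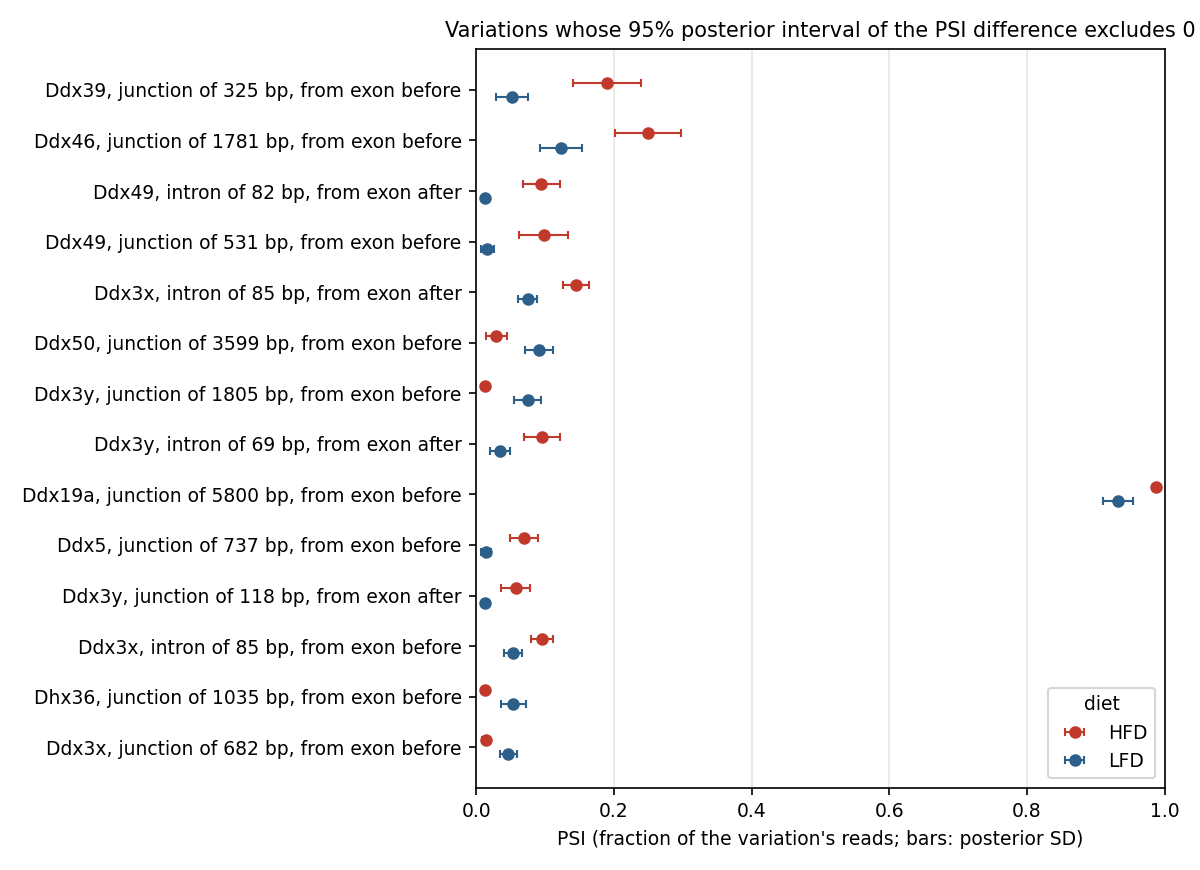
PSI of the less used entry (horizontal axis, 0 to 1) in each of the 14 helicase LSVs whose 95% posterior interval of the difference excludes 0, for HFD (red, upper point) and LFD (blue, lower point), with bars of posterior SD. Each row names the gene, the junction or retained intron by its length, and whether the view is from the exon before or after. Apart from Ddx19a, where the largest entry is the one beyond the error, all points lie at or under 0.250, and the rows of Ddx39 and Ddx46 have the widest gaps.

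The spliceosomal helicases had 26 matched LSVs in 7 genes, of which 1 exceeded its error (3.85%, beside the same 13.9%). That was the tandem 5′ splice site of Ddx46, the ortholog of yeast Prp5, which acts on the U2 snRNP at the branch point. The shorter exon, without GTA, had PSI 0.250 ± 0.0475 on HFD and 0.123 ± 0.0306 on LFD. The difference of 0.127 had an interval of 0.0158 to 0.237, and the reading rested on 82.2 effective reads on HFD and 114 on LFD. In the pooled reads the exon without GTA was thus used more on HFD, while the spread between animals is unknown. Both forms are annotated as protein-coding.

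The other spliceosomal helicases stayed within the error. Ddx42, also of the U2 snRNP, had an alternative 3′ site 91 nt upstream at PSI 0.0749 ± 0.0322 on HFD and 0.0138 ± 0.00626 on LFD. Ddx42 also skipped a 37-bp segment at 0.0131 ± 0.00403 on HFD and 0.0455 ± 0.0179 on LFD from the exon before. In Dhx16, the ortholog of yeast Prp2, the 78-bp intron was spliced out at 0.983 ± 0.00954 on HFD and 0.949 ± 0.0157 on LFD from the exon before. Ddx23, the ortholog of yeast Prp28, had an unpreferred 5′ site 45 nt from the main one at 0.0534 ± 0.0240 on HFD and 0.0247 ± 0.0159 on LFD. The largest differences of Ddx41, Ddx39b and Dhx15 were 0.0235, 0.0169 and 0.0119. An entry of Ddx39b listed as a 22-bp retained intron, at 0.963 ± 0.0227 on HFD and 0.949 ± 0.0248 on LFD, is exon sequence in the annotated transcripts Ddx39b-201, Ddx39b-202 and Ddx39b-203, while the coding transcript Ddx39b-205 splices over it.

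Helicases of ribosome assembly had 15 matched LSVs in 6 genes. The 2 beyond the error (13.3%, beside 13.9% of all LSVs) were both in Ddx49. An 82-bp stretch of a Ddx49 intron (chr8:70295738-70295819) was read at PSI 0.0948 ± 0.0275 on HFD and 0.0126 ± 0.00185 on LFD from the exon after. From the exon before it was 0.0263 ± 0.0163 on HFD and 0.0126 ± 0.00184 on LFD, within the error. Another Ddx49 exon joined a 3′ splice site 74 nt upstream of the main site at 0.0979 ± 0.0355 on HFD and 0.0162 ± 0.00960 on LFD, a junction annotated in a retained-intron transcript. Both of these minor Ddx49 forms were thus higher on HFD, where LFD was at or near the lowest PSI reported. Ddx24 had 0.956 ± 0.0246 on HFD and 0.927 ± 0.0267 on LFD for its main junction, within the error. In Ddx47, Ddx52, Ddx18 and Ddx51 no entry differed by more than 0.0138.

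Among the coregulators of transcription and splicing, Ddx5, Ddx17 and Dhx9 had 30 matched LSVs. Of these, 1 (3.33%, beside 13.9% of all LSVs) exceeded its error. Ddx5 and Ddx17 are paralogs that bind RNA polymerase cofactors and take part in microRNA processing and splicing. The last-but-one intron of Ddx5 was read through at its first part with PSI 0.251 ± 0.0239 on HFD and 0.223 ± 0.0206 on LFD. This is the form whose stop codon follows the exon's end directly, and its difference of 0.0279 was within the error at 329 effective reads on HFD and 407 on LFD. Splicing to the next exon, which keeps the coding frame, had 0.749 ± 0.0239 on HFD and 0.770 ± 0.0208 on LFD. The LSV beyond the error lay further along the same intron. There the next 30-bp stretch was kept at 0.915 ± 0.0213 on HFD and 0.977 ± 0.0128 on LFD, from the exon before. In the same view a 737-bp junction that leaves the retained part had 0.0694 ± 0.0196 on HFD and 0.0147 ± 0.00714 on LFD. From the exon after, neither differed beyond the error. The stretch then had 0.987 ± 0.00362 on HFD and 0.987 ± 0.00116 on LFD. The junction had 0.0133 ± 0.00445 on HFD and 0.0125 ± 2.94e-07 on LFD. The remaining 5 Ddx5 introns were at or under 0.0867 in every view.

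Ddx17 entered its alternative 236-bp exon with PSI 0.153 ± 0.0296 on HFD and 0.0842 ± 0.0201 on LFD. The difference of 0.0691 had an interval of -0.00109 to 0.139 and so did not exceed its error. The junction out of the exon had 0.0734 ± 0.0221 on HFD and 0.0267 ± 0.0142 on LFD, also within it. The tandem 5′ site of Ddx17 was close to an even choice on both diets. The shorter form had 0.597 ± 0.0367 on HFD and 0.582 ± 0.0330 on LFD, and the form with GTAAGG had 0.402 ± 0.0367 on HFD and 0.409 ± 0.0329 on LFD.

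Dhx9, or RNA helicase A, included its 139-bp stop-carrying exon at PSI 0.108 ± 0.0255 on HFD and 0.138 ± 0.0242 on LFD from the exon before. From the exon after it was 0.108 ± 0.0256 on HFD and 0.0963 ± 0.0210 on LFD. The form of Dhx9 without the optional CAG had 0.161 ± 0.0367 on HFD and 0.156 ± 0.0319 on LFD. Neither choice differed beyond the error, and the interval for the exon from the exon before ran from -0.0991 to 0.0387.

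**Figure D3:**
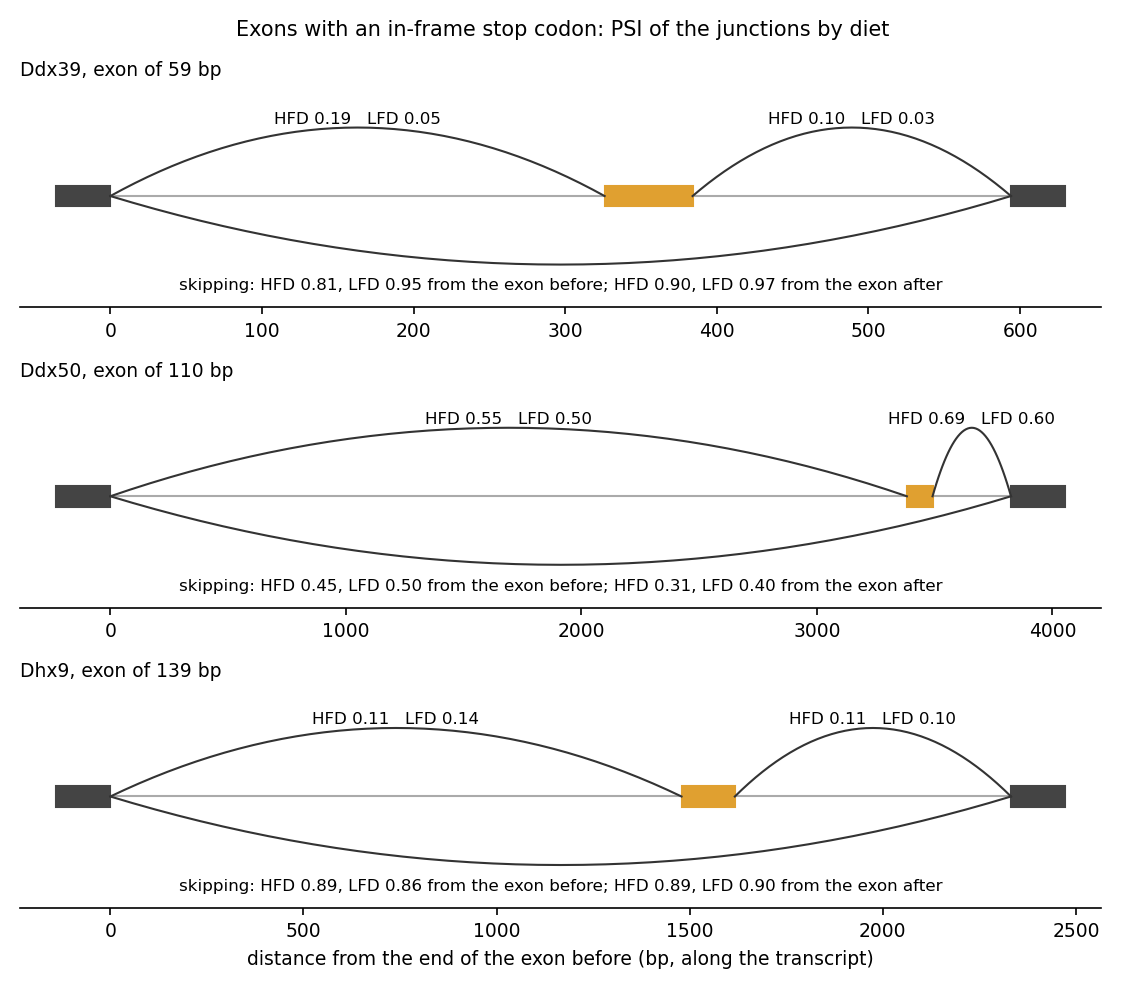
Exons with an in-frame stop codon in Ddx39, Ddx50 and Dhx9 (orange), between the neighbouring exons (dark, width not to scale), drawn along the transcript in bp from the end of the exon before. Upper arcs are the inclusion junctions and lower arcs the skipping junction, with PSI on HFD and LFD. The Ddx50 exon is included at PSI between 0.504 and 0.693, while those of Ddx39 and Dhx9 are mostly skipped.

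None of the helicases that sense viral RNA or are grouped with them differed beyond the error. Dhx58 (LGP2), Ddx1 and Ddx58 (RIG-I) had 9 matched LSVs. Beside the 13.9% of all LSVs beyond the error, a count of 0 among so few says nothing particular about this group. Their largest differences were 0.0212, 0.0147 and 0.00151. In each of the 3 Ddx58 LSVs the main junction had a PSI of 0.985 or more on both diets.

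Of the helicases outside these groups, Ddx50, a nucleolar paralog of Ddx21, had the most evenly used stop-carrying exon of the set. Its 110-bp exon was included at PSI 0.693 ± 0.0355 on HFD and 0.603 ± 0.0313 on LFD from the exon after, a difference of 0.0896 with an interval of -0.00307 to 0.182. From the exon before, inclusion was 0.554 ± 0.0451 on HFD and 0.504 ± 0.0347 on LFD. In both views the exon was higher on HFD, and in neither did the difference exceed its error. The Ddx50 LSV that did was a 5′ splice site in no vM21 transcript, 58 nt before the annotated end of the next exon. It had 0.0289 ± 0.0154 on HFD and 0.0912 ± 0.0199 on LFD. Dhx32 had its largest difference, 0.0422, at its main 8572-bp junction (0.934 ± 0.0235 on HFD, 0.892 ± 0.0268 on LFD), within the error. In Dhx40 all 9 LSVs differed by 0.00647 or less.

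Across the family, splice sites within 12 nt of each other formed 13 pairs in 11 genes. Of these pairs, 6 were at distances that are multiples of 3, and 5 of the 6 were 3 nt apart. The pairs whose distance is not a multiple of 3, in Ddx1, Ddx39b, Ddx5, Ddx50, Dhx15, Dhx32 and Dhx9, had a rarely used member: its PSI was at most 0.0266 on either diet. The frame-keeping pairs ranged from 0.0139 in Ddx3x on HFD to 0.439 in Ddx3y on LFD for the less used form. Thus the evenly used tandem choices of these genes, in Ddx17 and Ddx3y, both keep the reading frame.

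Retained introns made up more of the helicase LSVs than of all LSVs, and alternative exons fewer. A retained intron was part of 36.8% of helicase LSVs and 25.5% of all LSVs, while 47.8% of helicase LSVs and 65.4% of all offered a choice of partner exon. These shares describe the tables, since LSVs of a gene share reads. Many of the helicase intron LSVs are in Ddx5, with 15 matched LSVs, and Ddx3x, with 13. Most introns were also counted from both sides, 24 of the 26 below. The share without these genes was not computed, so the excess is not read as a trait of the family. The 50 intron entries were views of 26 stretches in 12 genes, 22 to 142 bp long with a median of 87 bp. Of these stretches, 8 lie within an exon of some vM21 transcript, among them the 22-bp stretch of Ddx39b and the 30-bp stretch of Ddx5. In 18 of the 26 the mean PSI over the diets was under 0.05 in every view. On HFD 16 entries were higher and 26 lower, and 8 lay within 0.0001 of LFD. Beyond the error 4 were higher on HFD, in Ddx3x, Ddx3y and Ddx49, and 1 was lower, the 30-bp stretch of Ddx5. The median difference of -0.000368 gives the introns no common direction.

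**Figure D4:**
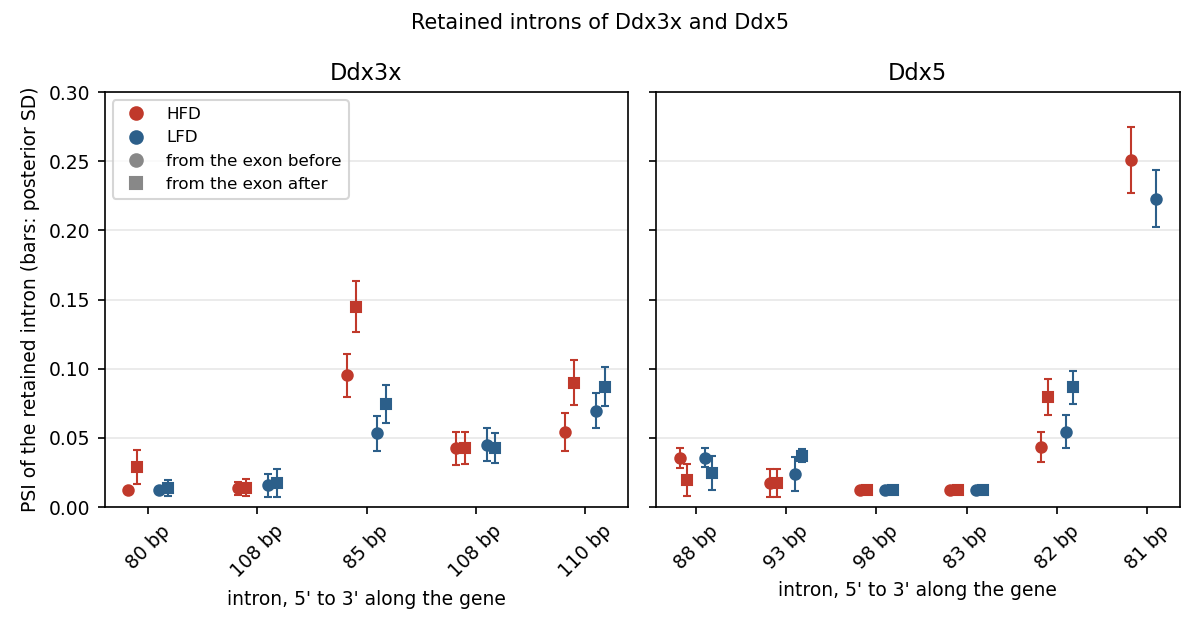
PSI of retained introns (vertical axis, bars of posterior SD) along Ddx3x and Ddx5, ordered 5′ to 3′ and named by length in bp, for HFD (red, left) and LFD (blue, right), viewed from the exon before (circles) and after (squares). The 85-bp intron of Ddx3x is higher on HFD in both views, and the 81-bp stretch of Ddx5 is the most used, with its bars overlapping. The 30-bp stretch of Ddx5 is not drawn.

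Most helicase LSVs had a strongly preferred choice. The largest entry had a mean PSI of at least 0.97 in 64.7% of helicase LSVs and 62.0% of all, and under 0.8 in 3.68% of helicase LSVs and 8.76% of all. Of 193 distinct junctions, 148 are in a vM21 transcript and 120 in a protein-coding one. None of the members' entries carries the authors' de novo flag, the sources used here do not name the version of the authors' annotation, and a junction outside vM21 may have been annotated there.

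On HFD alone 4 helicase LSVs were quantified, and on LFD alone 13. This is 2.86% of the helicase LSVs in the HFD table and 8.72% of those in the LFD table, beside 1.94% and 16.6% of all LSVs in the same tables. Being in 1 table only depends on reads as well as on splicing and is not a change in PSI. The HFD-only LSVs were in Dhx30, a helicase of mitochondrial ribosome assembly, with 2, and in Ddx19b and Dhx38. The Dhx38 LSV is a tandem 3′ site with 0.592 ± 0.0583 for the longer exon. The LFD-only LSVs were in Ddx6, Ddx20, Ddx51, Ddx56, Dhx37 and Dhx58os with 1 each, in Dhx30 and Dhx58 with 2 each, and in Dhx33 with 3. Ddx6, a decay and translational repression factor of P-bodies, divided its first-exon reads over 4 splice sites, at 0.134 ± 0.0400, 0.573 ± 0.0581, 0.254 ± 0.0510 and 0.0392 ± 0.0233. The main junction of the antisense Dhx58os (chr11:100696211-100696976) has the same ends as a Dhx58 junction on the other strand, and whether reads were shared between the strands was not tested.

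Other RNA helicases, whose symbols fall outside the name rule, gave the same count. Of 21 listed, 10 had matched LSVs, and 0 of their 75 LSVs met the rule, beside 0.624% of all LSVs. For so few LSVs a count of 0 is close to that share. The median of the largest differences of these 10 genes was 0.0360. The largest was in the decay helicase Upf1, at a junction (chr8:70339841-70340015) with PSI 0.891 on HFD and 0.725 on LFD. This is a difference of 0.166 with a combined posterior SD of 0.0482. The largest differences of Helz2 and Skiv2l, 0.124 and 0.0726 with combined posterior SD of 0.0343 and 0.0264, also lay beyond the error. In the rest of these genes the largest difference was within the error. Of all genes with matched LSVs, 1.05% pass the adjusted p-value of 0.05 in the authors' deposited table from JUM. Of this list Eif4a2, a translation initiation helicase, did so. In the authors' deposited table its 3 retained introns changed by 0.110, 0.148 and 0.0873, HFD minus LFD, with adjusted p-values of 3.75e-04, 0.0241 and 0.0126.

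The cell type was checked only by which marker genes had LSVs, since these tables hold no expression levels. On both diets 9 of 10 hepatocyte markers had a matched LSV, beside 1 of 7 macrophage markers (Clec4f), 1 of 6 endothelial markers (Nrp1), 1 of 5 stellate cell markers (Dcn) and 1 of 5 bile duct markers (Spp1). The part of other cell types in the helicase values was not tested.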

How the data were processed

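Hepatocyte mRNA was sequenced as paired ends of 100 cycles. Per the submitters' processing notes, FastQC and STAR were used with mm10, in versions not given in the sources used here. The PSI tables were written by voila (MAJIQ), per the file headers. The deposited cells pack several values per LSV: PSI is a fraction given with its posterior variance, pooled per diet by the authors. Read depth per library is unknown, and effective reads were computed as PSI × (1 − PSI) / variance − 1. The deposited differential PSI table came from a separate, stricter run; the deposited JUM table holds p-values and PSI changes headed HFD minus LFD.

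LSVs were matched by ID in Python 3.11.15 with pandas 2.3.3 and numpy 2.4.6, and the calling rule was checked on simulated posteriors. Junctions were compared with GENCODE vM21, the gene models of mm10. Views were named by the LSV type, which follows the transcript. No test between animals was possible. The members, role groups and lists were chosen with earlier results of these data known. Every member may be named; full values go to those beyond the posterior error and the most different member of each role group, other values being chosen after they were seen.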

Additional observations from a re-analysis of the deposited data

How the results depend on the processing

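No paired analysis was possible because the tables pool the 3 libraries of each diet, and for the same reason no library could be left out. The count of helicase LSVs called was 0 at a difference of 0.2 and 2 at a difference of 0.1, in Ddx39 and Ddx46, where 4.17% of all LSVs are called. The largest helicase difference was 0.138, so the settings with a minimum of 0.15 or more, or with a further condition added to or dropped from the minimum of 0.2, could give only 0 and say nothing about stability. The same holds for the thresholds tried on the authors' deposited tables, which list no helicase at any value. The median largest difference per gene was 0.0324 with junctions alone and with posterior SD under 0.05, a limit that left out no helicase LSV. Values of named junctions could not be taken from the authors' differential PSI table, which lists no helicase. The posterior SD covers reads only: how far animals on the same diet differ is unknown.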
